A study of Mus musculus with 20 samples.

Results

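Voltage-gated ion channel genes were followed in cerebral cortex of PS19 mice, and they are 57 of the 21949 genes in the deposited mRNA table. Members were taken by gene symbol alone. They comprise the sodium channel alpha and beta subunits (Scn genes ending in a or b), the potassium channel alpha subunits of the Kcna, Kcnb, Kcnc, Kcnd, Kcnh and Kcnq classes, the pore-forming calcium channel subunits (Cacna1) and the hyperpolarisation-activated Hcn channels. The pore-forming gene Scn2a is listed in the table under its older symbol Scn2a1, which the symbol rule does not take. The members were chosen for what they are and not for any measured value.

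The transgenic mice (TG) carry Tg(Prnp-MAPT*P301S)PS19Vle, a mutant human tau transgene driven by the Prnp promoter, and the controls are labelled wild type (WT). All were on a (C57BL/6 x C3H)F1 background, were 3 or 10 months old, and gave the groups WT03M, TG03M, WT10M and TG10M with 5 libraries of total RNA each. No treatment is named. Replicates are numbered in the labels, with no word on whether they are different mice, so p-values measure the spread between these samples, which may be technical.

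Voltage-gated channels open their pores when the potential across the membrane changes. Sodium channel alpha subunits carry the rising phase of the action potential, and the small beta subunits adjust their gating and their place in the membrane. Potassium channels end the action potential and set how soon the next can follow, calcium channels link depolarisation to calcium entry, and HCN channels open on hyperpolarisation and dampen dendritic input. In cortical neurons the different members sit at the axon initial segment, at nodes, in dendrites or at nerve terminals.

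Levels are FPKM, fragment counts scaled by transcript length and by the library's mapped fragments, summed over the transcripts of a gene, so levels of different genes can be set side by side per length. A difference is one of log2(FPKM + 0.5), which understates the change of genes with low levels. The test was limma's, adjusted by Benjamini and Hochberg over 13722 genes, and a gene is called at an adjusted p under 0.05. The sign ± gives the SD of a group (n = 5). Intervals in brackets are 95% intervals of the difference from the same fit.

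Steps between low FPKM values, sought within a fixed range, put the depth at 22900000 to 30300000 fragments per library. Prnp, whose promoter drives the transgene, was called higher in TG at both ages, by 0.76 at 3 months (adjusted p = 1.25e-06, limma) and 0.83 at 10 months (adjusted p = 2.83e-07). It ranged from 426 to 458 and 412 to 528 FPKM in the WT groups to 695 to 812 and 736 to 841 FPKM in the TG groups, with no overlap between genotypes at either age, and whether reads of the transgene enter these values was not tested. Mapt, the mouse tau gene, was not called, with -0.15 (-0.30 to 0.01) at 3 months and -0.15 (-0.30 to 0.0044) at 10 months. 3 libraries stood apart. On the first principal component of all tested genes but the channel members, which held 23.9% of the variance, scores were 26.2 to 30.8 for TG10M replicates 1 and 5 and WT10M replicate 5, against -12.1 to 2.52 for the remaining 17. On this component the 17 also divided by genotype, with the 9 WT libraries at -12.1 to -6.33 and the 8 TG libraries at -1.91 to 2.52. The chaperone gene Hsp90aa1 lay at 532 to 687 FPKM in 13 libraries. It lay at 13.9 to 20.5 FPKM in the 3 that stood apart and in all TG03M libraries except replicate 1. All 12 markers of excitatory neurons were detected in every library, with a summed level of 954 to 1075 FPKM in WT03M and 659.9 to 997 in WT10M, and of 962 to 1171 in TG03M and 683 to 927 in TG10M.

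Of the 57 members, 47 had a mean of at least 0.5 FPKM over the 20 libraries and were tested. The lowest mean among them was 0.531 FPKM (Kcnh6), with 31 at 10 FPKM or more, 12 at 1 to 10 and 4 under 1. The other 10 members averaged 0.00347 to 0.459 FPKM, and 4 of them were listed at 0 in at least 1 library. They include Scn4a and Cacna1s, the channels of skeletal muscle, at 0.00347 and 0.126 FPKM, Scn10a and Scn11a of sensory neurons, at 0.0447 and 0.0435 FPKM, and Cacna1f of the retina, at 0.0252 FPKM. Kcna7, Kcna10, Kcnh8, Scn9a and Kcnq1 make up the rest, and Kcnq1 at 0.459 FPKM lay just under the limit for testing while Kcnh6 lay just over it.

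**Figure D1:**
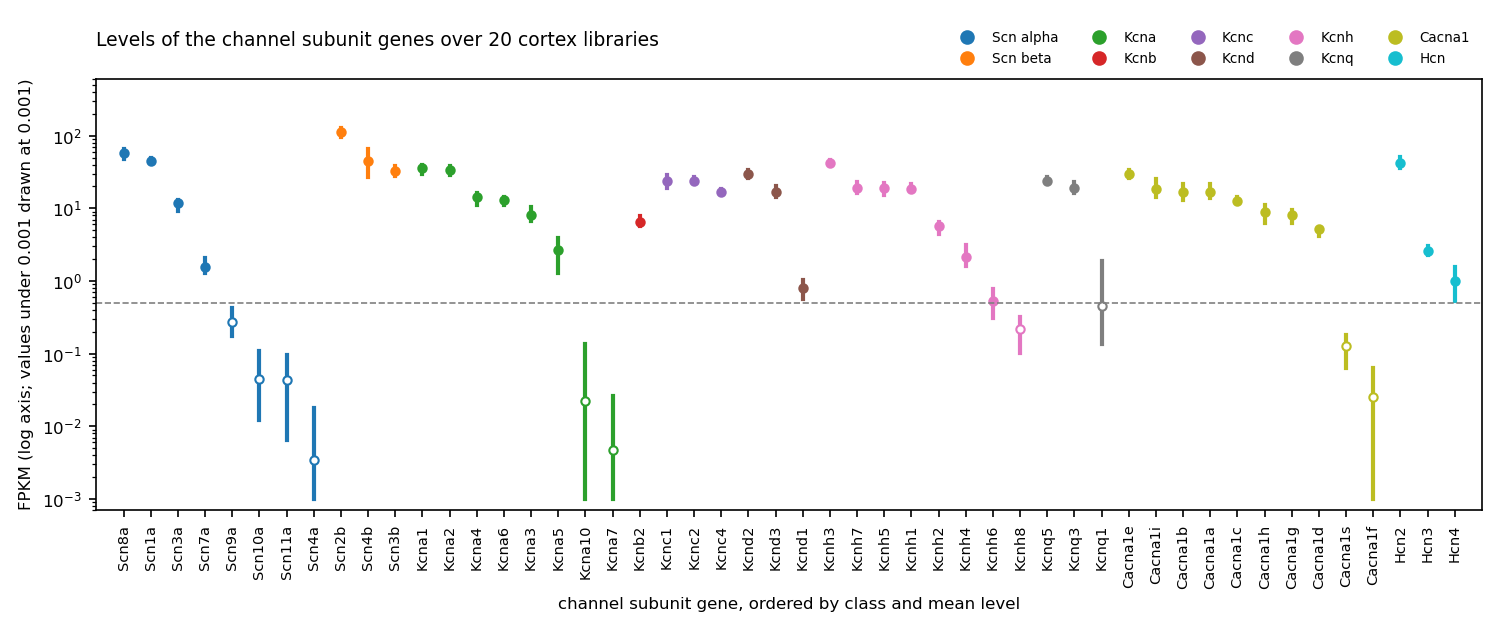
Level of 50 of the 57 channel genes in FPKM on a log axis, grouped by class; points are means over 20 libraries, lines run from the lowest to the highest library, and open points were under the 0.5 FPKM limit (dashed) and not tested. Scn2b at 111 FPKM and Scn8a at 57.0 FPKM lie near the top, and the channels of muscle, retina and sensory neurons lie near the bottom.

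Among sodium channel alpha subunits the order of levels was Scn8a, Scn1a and Scn3a. Scn8a (ENSMUSG00000023033), a main channel of the axon initial segment and nodes, averaged 57.0 FPKM with 48.2 to 64.9 FPKM over the libraries. Scn1a (ENSMUSG00000064329), which fast-spiking interneurons depend on, averaged 44.2 FPKM and ranged from 40.2 to 49.7 FPKM. The ranges of Scn8a and Scn1a meet only at their edges. Scn3a, a channel best known from the embryonic brain, averaged 11.9 FPKM, and the glial and vascular Scn7a averaged 1.57 FPKM. For reference, Scn2a1 stood at 118 ± 9.31 and 119 ± 4.45 FPKM in WT at 3 and 10 months and at 119.9 ± 2.76 and 119 ± 3.79 FPKM in TG, above the values of Scn8a and Scn1a.

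Of the beta subunits, Scn2b (ENSMUSG00000070304; GRCm38 chromosome 9, 45117782 to 45130070, plus strand) averaged 111 FPKM. Scn4b (ENSMUSG00000046480), which promotes resurgent sodium current, and Scn3b averaged 45.3 and 33.1 FPKM.

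Potassium channel subunits of the 6 classes summed to 487 FPKM. The M-current genes Kcnq5 and Kcnq3, whose channels hold neurons back from repeated firing, averaged 24.1 and 19.1 FPKM. Kcnh3 (ENSMUSG00000037579), a forebrain member of the ether-a-go-go family, averaged 41.6 FPKM. The axonal Shaker genes Kcna1 and Kcna2 averaged 35.7 and 33.9 FPKM and their ranges overlapped widely. Of the A-type channels, Kcnd2 averaged 29.5 FPKM and Kcnd3 16.9 FPKM. The fast-spiking Shaw genes Kcnc1 and Kcnc2 averaged 24.1 and 23.7 FPKM, within each other's range.

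Among pore-forming calcium channel subunits the R-type gene Cacna1e (ENSMUSG00000004110) was highest at 29.5 FPKM. The T-type gene Cacna1i averaged 18.5 FPKM, and the presynaptic N- and P/Q-type genes Cacna1b and Cacna1a averaged 16.8 and 16.7 FPKM. The ranges of these 3 over the libraries overlapped, and differences between genes were not tested. Among the pacemaker channels Hcn2 (ENSMUSG00000020331) averaged 42.2 FPKM, and Hcn3 and Hcn4 averaged 2.61 and 0.991 FPKM.

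At 10 months, with tau transgenic cortex set against wild type, no channel member was called. Of 47 tested members, 0 passed in limma, against 0.634% of all genes tested, and 5 (10.6%) had an unadjusted p under 0.05, against 14.1% of all genes. The lowest difference was -0.45 (Kcna5), with a median of -0.04 over the members and 0.00062 over all genes. The median size of a difference, sign aside, was 0.0802 for the members and 0.0886 for all genes. For 43 of 47 members the 95% interval lay between -0.5 and 0.5. Kcna5, Scn4b and Cacna1b were among the 4 others. Without the 3 libraries that stand apart 1 member (2.13%) was called at 10 months in limma, against 2.38% of all genes, and 0 in the other comparisons. The members with an unadjusted p under 0.05 were then 6 (12.8%, against 15.9% of all genes) at 10 months and 8 (17.0%, against 16.8% of all genes) at 3 months. They were 5 (10.6%, against 7.80% of all genes) for age in WT, 5 (10.6%, against 9.82% of all genes) for age in TG and 3 (6.38%, against 6.14% of all genes) for the interaction.

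The interval was narrow for several abundant pore-forming genes. Scn8a had a difference of 0.02 (-0.13 to 0.16), Scn1a of 0.08 (-0.06 to 0.22) and Kcnd2 of 0.009 (-0.09 to 0.11). Kcnh3 had -0.01 (-0.12 to 0.11), Kcna2 -0.02 (-0.18 to 0.14) and Cacna1e -0.11 (-0.23 to 0.01).

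Scn2b had lower means in TG at both ages. It had 121, 117, 117, 126 and 106 FPKM in WT10M against 97.1, 116, 109.7, 113 and 102 FPKM in TG10M, and all but 1 WT10M library, replicate 5, lay above every TG10M library. The 10-month difference was -0.13 (-0.24 to -0.02; adjusted p = 0.280) and the 3-month one -0.12 (-0.23 to -0.01; adjusted p = 0.403). Without WT10M replicate 5 the 10-month difference was -0.17 and passed (adjusted p = 0.0348; 0.0348 to 0.575 over its alternatives).

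Kcna4, an A-type Shaker gene, had 16.2, 16.1, 15.9, 15.9 and 15.5 FPKM in WT10M and 15.2, 12.8, 15.4, 13.5 and 14.0 FPKM in TG10M. Together with Scn4b it was 1 of 2 members whose groups did not overlap at 10 months, both lower in TG10M. That is 4.26% of the members, against 0.729% of all genes lower in this way. The Kcna4 difference was -0.16 (-0.32 to -0.01; adjusted p = 0.331, limma).

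Cacna1b, the N-type calcium channel of nerve terminals, had 21.8, 17.3, 17.1, 20.2 and 15.8 FPKM in WT10M and 13.6, 17.2, 15.5, 15.3 and 12.9 FPKM in TG10M. The groups overlapped, since TG10M replicate 2 lay above WT10M replicates 3 and 5. The difference was -0.29 (-0.51 to -0.07; adjusted p = 0.213), and it passed only without WT10M replicate 5 (-0.34, adjusted p = 0.0462; up to 0.451 over its alternatives). The low-level Shaker gene Kcna5 had 2.55, 3.63, 3.13, 3.07 and 2.73 FPKM in WT10M and 1.76, 1.35, 2.32, 2.29 and 2.93 FPKM in TG10M, a difference of -0.45 with the wide interval -0.89 to 0.00012 (adjusted p = 0.355).

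Hcn2 had 44.0, 38.7, 37.9, 40.5 and 51.1 FPKM in WT10M and 50.4, 43.5, 44.2, 48.0 and 48.4 FPKM in TG10M, with the highest WT10M value in replicate 5, which stands apart. Its difference was 0.15 (-0.0047 to 0.30; adjusted p = 0.368), and without WT10M replicate 5 it was 0.22 and passed (adjusted p = 0.0340; up to 0.664 over its alternatives). Without that library 4 of 47 members passed, Scn2b, Hcn2 and Cacna1b among them. So did 1600 of all 13722 genes tested, a larger share. The libraries that stand apart are then all transgenic, so genotype and that set cannot be told apart.

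**Figure D2:**
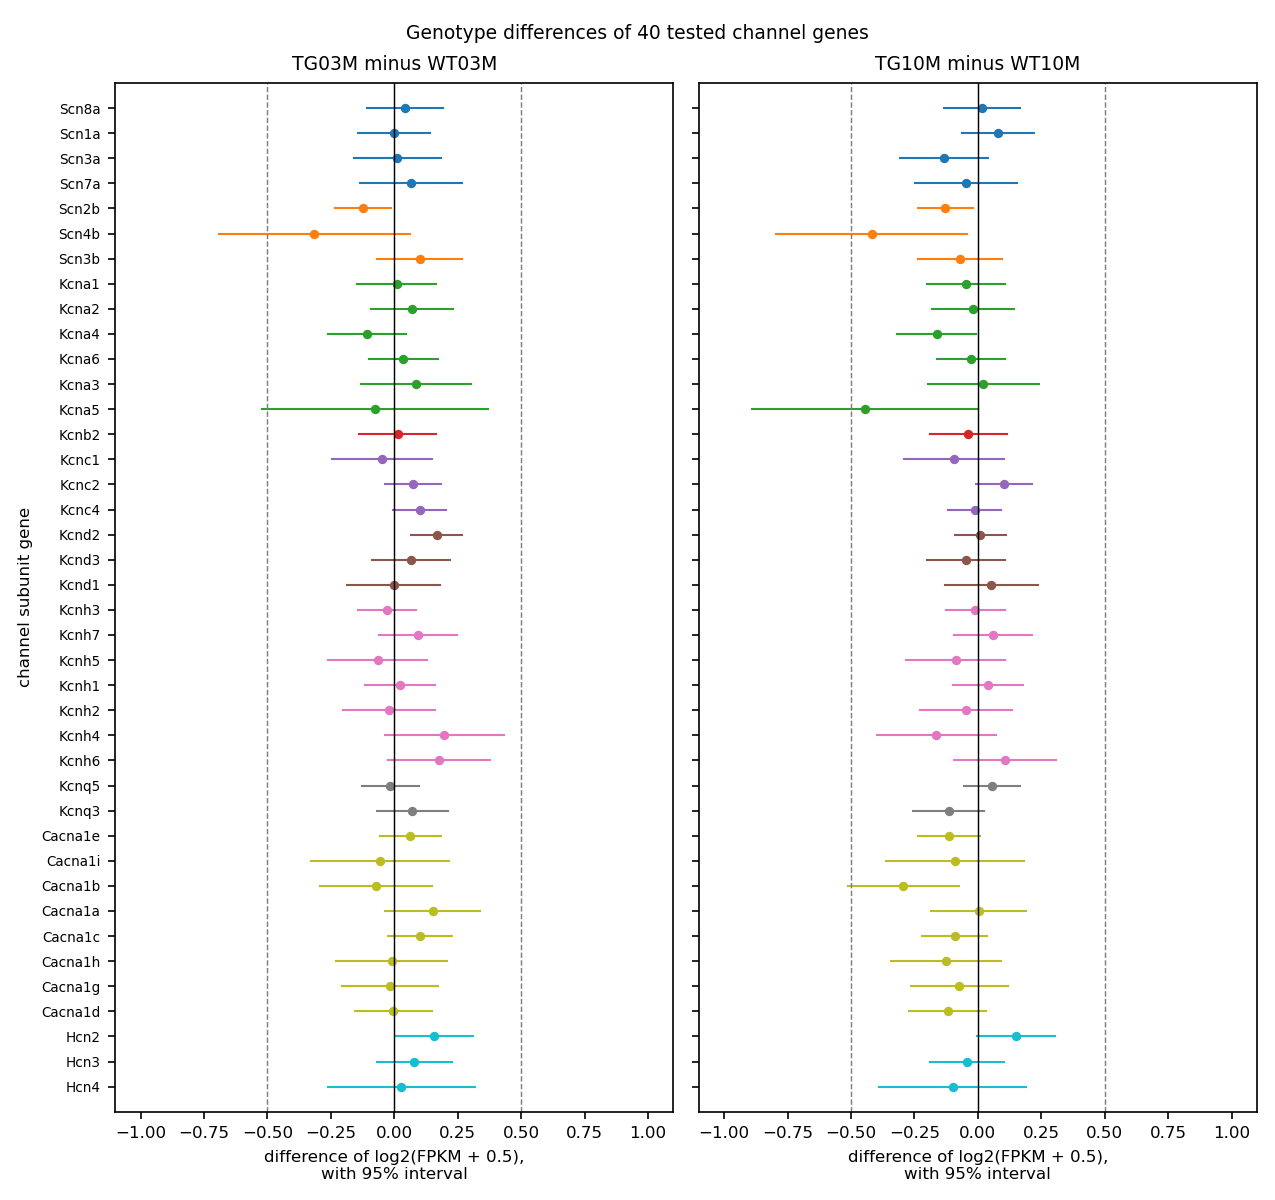
Difference between TG and WT for 40 of the 47 tested members at 3 months (left) and 10 months (right), in log2(FPKM + 0.5) with 95% intervals from limma, n = 5 per group; dashed lines mark -0.5 and 0.5 and colours mark the classes as in the plot of levels. No member was called, and Kcna5 lies lowest at 10 months, at -0.45.

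By class the 10-month differences were -0.13 to 0.08 for the 5 tested sodium alpha subunits and -0.29 to 0.003 for the 8 tested calcium channel genes, of which 7 were negative. Of all 47 tested members 31 were negative, and of all genes 49.8%. The differences were -0.16 to 0.11 for the 7 Kcnh genes and -0.10 to 0.15 for the 4 Hcn genes. The summed Cacna1 level was 119 ± 8.46 FPKM in WT10M and 110.0 ± 9.92 FPKM in TG10M, and their ranges, 107 to 129.9 and 98.7 to 125 FPKM, overlapped. In bulk cortex, fewer cells of a type and less RNA per cell cannot be told apart in any of these values. Markers of other cells moved at 10 months. In 3 of 12 marker lists a gene was called: 4 of 11 microglia, 2 of 10 astrocyte and 1 of 10 endothelial and mural markers, all higher in TG10M, where 0.634% of all genes were called. The summed levels in WT10M and TG10M were 265 to 421 against 416 to 508 FPKM for microglia, 1229 to 1400.1 against 1513 to 1675 FPKM for astrocytes and 144 to 176 against 181 to 222 FPKM for endothelial and mural cells. Those of oligodendrocytes were 1310.4 to 1692 against 1608 to 1747 FPKM, with 0 of 10 markers called and all 10 differences positive. Inhibitory neuron markers summed to 1160 to 1406 FPKM in WT10M and 1412 to 1535 FPKM in TG10M. Of these 11 markers 0 were called and 7 differences were positive. At 3 months they summed to 1135 to 1288 FPKM in WT03M and 1313 to 1567 FPKM in TG03M. No marker of these lists was at 0 in any library, and their part in the channel values was not tested.

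At 3 months 0 of 47 members were called in limma between TG03M and WT03M, against 0.299% of all genes, and 6 (12.8%) had an unadjusted p under 0.05, against 10.6% of all genes. The lowest difference was -0.32 (Scn4b), and 44 of 47 intervals lay between -0.5 and 0.5. The TG03M and WT03M groups did not overlap for 2 members, Kcnd2 among them, both higher in TG03M. That is 4.26% of members, against 2.01% of all genes higher in this way. All TG03M libraries but replicate 1 have the low Hsp90aa1, and the part of what sets them off in the 3-month differences was not tested.

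Kcnd2 (ENSMUSG00000060882; GRCm38 chromosome 6, 21215503 to 21729805, plus strand) forms the A-type channels of dendrites that restrain back-propagating action potentials. It had 26.4, 28.0, 28.7, 28.1 and 26.7 FPKM in WT03M and 30.4, 33.8, 30.0, 32.3 and 28.7 FPKM in TG03M, with the lowest TG03M library just above the highest WT03M one. The difference was 0.17 (0.07 to 0.27; adjusted p = 0.176), 0.0645 to 0.414 over its alternatives. At 10 months it was 0.009, from 29.2, 30.6, 29.6, 29.4 and 28.7 FPKM in WT10M and 30.7, 27.3, 31.3, 30.7 and 28.6 FPKM in TG10M, and the change between ages in that difference, -0.16, did not pass (adjusted p = 0.962).

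**Figure D3:**
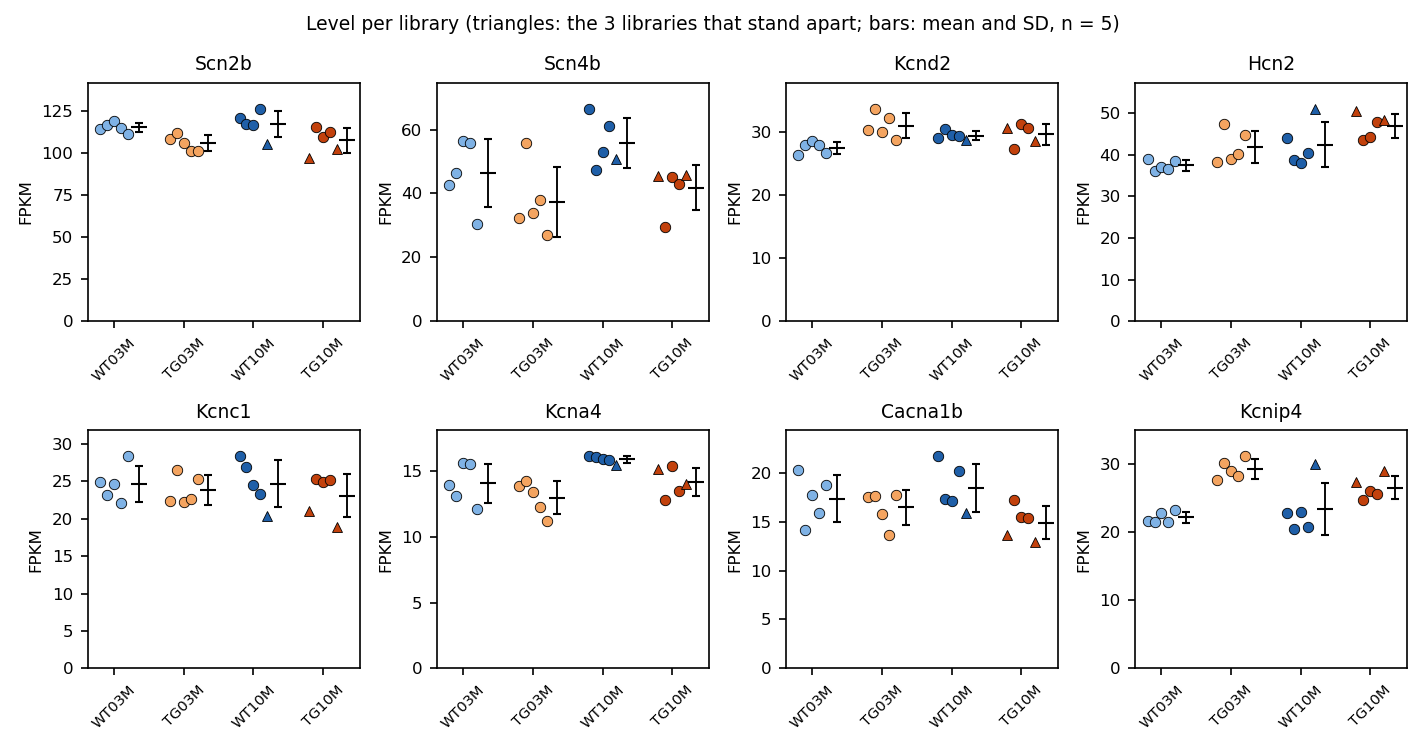
Level in FPKM of 7 channel genes and of the accessory gene Kcnip4 in each library, by group; circles and triangles are single libraries (triangles are WT10M replicate 5 and TG10M replicates 1 and 5), and bars give the mean and SD of 5 libraries. For Kcnip4 the triangle of WT10M lies at 30.0 FPKM, above all TG10M values, and for Hcn2 at 51.1 FPKM.

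With age, 0 of 47 members were called in WT (10 against 3 months, limma), against 0.0656% of all genes, and 0 in TG, against 0.845% of all genes. At an unadjusted p under 0.05 there were 4 in WT (8.51%, against 6.72% of all genes) and 7 in TG (14.9%, against 16.1%). Among members of at least 1 FPKM the largest age differences in WT were those of Scn4b, 0.29 (-0.09 to 0.66; adjusted p = 0.855), and Scn7a, 0.29 (0.09 to 0.49; adjusted p = 0.461). Scn7a, an atypical sodium channel that senses sodium, had 1.38, 1.30, 1.32, 1.46 and 1.30 FPKM in WT03M and 1.99, 1.63, 1.37, 1.81 and 2.06 FPKM in WT10M, with its highest value in the WT10M library that stands apart. Kcnd2 was the 1 member whose WT groups did not overlap, higher at 10 months (2.13% of members, against 0.86% of all genes higher in this way). The Kcna4 difference in WT was 0.18 (0.02 to 0.33; adjusted p = 0.629).

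In TG, Kcnh4 had an age difference among the 3 largest at 1 FPKM or more, -0.25 (-0.48 to -0.01; adjusted p = 0.289). Kcnh4, a striatum-enriched ether-a-go-go gene, had 2.11, 3.09, 2.28, 1.80 and 2.67 FPKM in TG03M and 2.18, 1.92, 1.59, 1.95 and 1.93 FPKM in TG10M, and the groups overlapped.

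The change of the genotype difference between 3 and 10 months was called for 0 of 47 members (limma), against 0.0364% of all genes, with 4 at an unadjusted p under 0.05 (8.51%, against 5.04%). It was negative for 39 of the 47 members and for 49.5% of all genes, with medians of -0.07 and 0.0016. Without the 3 libraries that stand apart the members' median was -0.05, with 30 negative values. The members share libraries and are not independent, so this count is a description. The largest at 1 FPKM or more were those of Kcna5, -0.37 (SE 0.30; adjusted p = 0.968), and Kcnh4, -0.36 (-0.69 to -0.03; adjusted p = 0.962).

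The proteins that partner these channels were given by lists of accessory, silent and anchoring subunits. Of 48 listed genes 43 were tested. Between genotypes, 1 of them (2.33%) was called higher and 0 lower at 3 months, against 0.299% of all genes called, and 0 in either direction at 10 months in limma, against 0.634%. With age 0 were called in WT, against 0.0656% of all genes, and 0 in TG, against 0.845%, and 0 in the interaction, against 0.0364%. At an unadjusted p under 0.05 there were 2 (4.65%, against 10.6% of all genes) for genotype at 3 months and 8 (18.6%, against 14.1% of all genes) at 10 months. There were 1 (2.33%, against 6.72% of all genes) for age in WT, 8 (18.6%, against 16.1% of all genes) for age in TG and 3 (6.98%, against 5.04% of all genes) for the interaction. Their median difference was 0.03 at 3 months and -0.03 at 10 months.

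The 1 called gene was Kcnip4 (ENSMUSG00000029088), a calcium-binding protein that joins Kcnd channels and shapes their A-type current. It had 21.7, 21.6, 22.8, 21.6 and 23.3 FPKM in WT03M and 27.8, 30.2, 29.1, 28.2 and 31.3 FPKM in TG03M. Every TG03M library lay above every WT03M library. Kcnip4 rose by 0.39 (SE 0.08; 0.23 to 0.55), or 1.31-fold, in TG03M (adjusted p = 0.0324, limma, n = 5 per group). The call ended in 9 of the 10 fits that left out 1 of these libraries, all but that without TG03M replicate 1, with a highest adjusted p of 0.115, while the difference stayed between 0.37 and 0.41. Over all 19 alternatives the adjusted p was 0.000118 to 0.115.

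At 10 months Kcnip4 had 22.8, 20.5, 23.0, 20.8 and 30.0 FPKM in WT10M and 27.4, 24.8, 26.1, 25.6 and 29.0 FPKM in TG10M. WT10M replicate 5 lay above all TG10M libraries, and the difference of 0.19 (0.03 to 0.35) had an adjusted p of 0.272. Without the 3 libraries that stand apart it was 0.22 (adjusted p = 0.0356), and without WT10M replicate 5 alone 0.28 (adjusted p = 0.00450; up to 0.525 over its alternatives). The mitochondrial gene mt-Co1, picked after its values were seen, was also higher in TG03M and in WT10M replicate 5. It had 5998 to 6549 FPKM in WT03M and 8514 to 10633 FPKM in TG03M. In WT10M replicate 5 it had 13045 FPKM, against 6915 FPKM at most in the other WT10M libraries. Its TG10M values are not given here, and its part in the Kcnip4 values was not tested. TG03M replicate 1 was the TG03M library whose Hsp90aa1 was in the higher range. Its 27.8 FPKM of Kcnip4 lay above all WT03M libraries and below all other TG03M libraries. At 10 months the 3 libraries with low Hsp90aa1, which stand apart, had the highest Kcnip4, at 27.4 to 30.0 FPKM. The other 10-month libraries had 26.1 FPKM at most. The part of what sets these libraries off in the Kcnip4 values was not tested. 1 transcript of 5 held most of the gene's level, with 19.0 ± 0.918 FPKM in WT03M and 24.8 ± 2.14 FPKM in TG03M.

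Scn4b varied more between libraries of a group than any other member above 5 FPKM, and its values ran with those of striatal genes. Scn4b (ENSMUSG00000046480; GRCm38 chromosome 9, 45138395 to 45154152, plus strand) had 42.5, 46.3, 56.4, 55.9 and 30.5 FPKM in WT03M and 32.2, 55.8, 34.0, 37.8 and 27.0 FPKM in TG03M. At 10 months it had 66.6, 47.4, 53.0, 61.1 and 50.6 FPKM in WT and 45.6, 29.6, 45.1, 43.1 and 45.8 FPKM in TG. Its 3 lowest libraries were WT03M replicate 5, TG03M replicate 5 and TG10M replicate 2, which come from 3 different groups. The same 3 libraries were the lowest for Drd1, the dopamine receptor of striatal neurons, at 7.08, 8.28 and 7.68 FPKM, against 12.3 FPKM or more elsewhere. They were also the lowest for the low-level member Kcna5, at 1.54, 1.29 and 1.35 FPKM, against 1.76 FPKM or more elsewhere.

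All 11 striatal markers were detected in every library. Their summed level was 194 to 525 FPKM in WT03M and 428 to 554 in WT10M, 203 to 529 in TG03M and 196 to 477 in TG10M. It was 194 to 203 FPKM in those 3 libraries and at least 265 FPKM in the 17 others. The median difference of the 11 at 10 months was -0.60. The Scn4b difference was -0.42 at 10 months (-0.79 to -0.04; adjusted p = 0.308, limma) and -0.32 at 3 months (-0.69 to 0.06; adjusted p = 0.557). Without TG10M replicate 2 the 10-month difference was -0.30 (adjusted p = 0.446, and 0.132 to 0.523 over its alternatives). Without the 3 libraries that stand apart it was -0.55 (adjusted p = 0.249, limma), and without WT10M replicate 5 it was -0.45 (adjusted p = 0.132). The part of striatal tissue in the Scn4b and Kcna5 values was not tested.

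**Figure D4:**
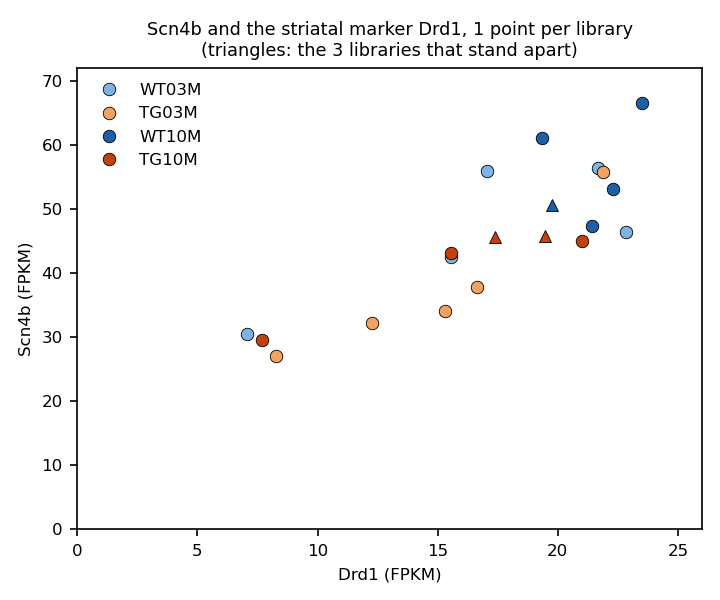
Scn4b against the striatal marker Drd1, both in FPKM, with 1 point per library and colours for the 4 groups; triangles are the 3 libraries that stand apart. The 3 libraries at the lower left have 7.08 to 8.28 FPKM of Drd1 and 27.0 to 30.5 FPKM of Scn4b.

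The 3 libraries that stand apart carried lower levels of many channel genes than the 7 other 10-month libraries. In 16 of 47 members (34.0%) all 3 lay below all 7, against 18.7% of all genes, and in 3 (6.38%) above, against 15.6%. These libraries were found from the values of other genes and are not a group of the study, so the counts are a description with no test.

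The fast-spiking gene Kcnc1 had 18.9 to 21.0 FPKM in the 3 libraries and 23.3 to 28.4 FPKM in the 7 others. The axonal gene Kcna1 had 29.8 to 31.0 against 33.7 to 38.6 FPKM, and Scn8a 48.2 to 53.7 against 56.6 to 64.9 FPKM. Kcna2, Kcna3 and Kcna6, Kcnh2 and Kcnh5, Kcnq3, Cacna1a, Cacna1d and Cacna1g, and Scn2b were also lower in this way. The members above were Hcn2, at 48.4 to 51.1 against 37.9 to 48.0 FPKM, Kcnh3 and Kcnq5. Within a class, members thus lay on opposite sides, as Kcnq3 and Kcnq5 did. The summed excitatory neuron markers were 659.9 to 689 FPKM in the 3 libraries and 912 to 997 FPKM in the 7 others, and their part in these values was not tested.

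**Figure D5:**
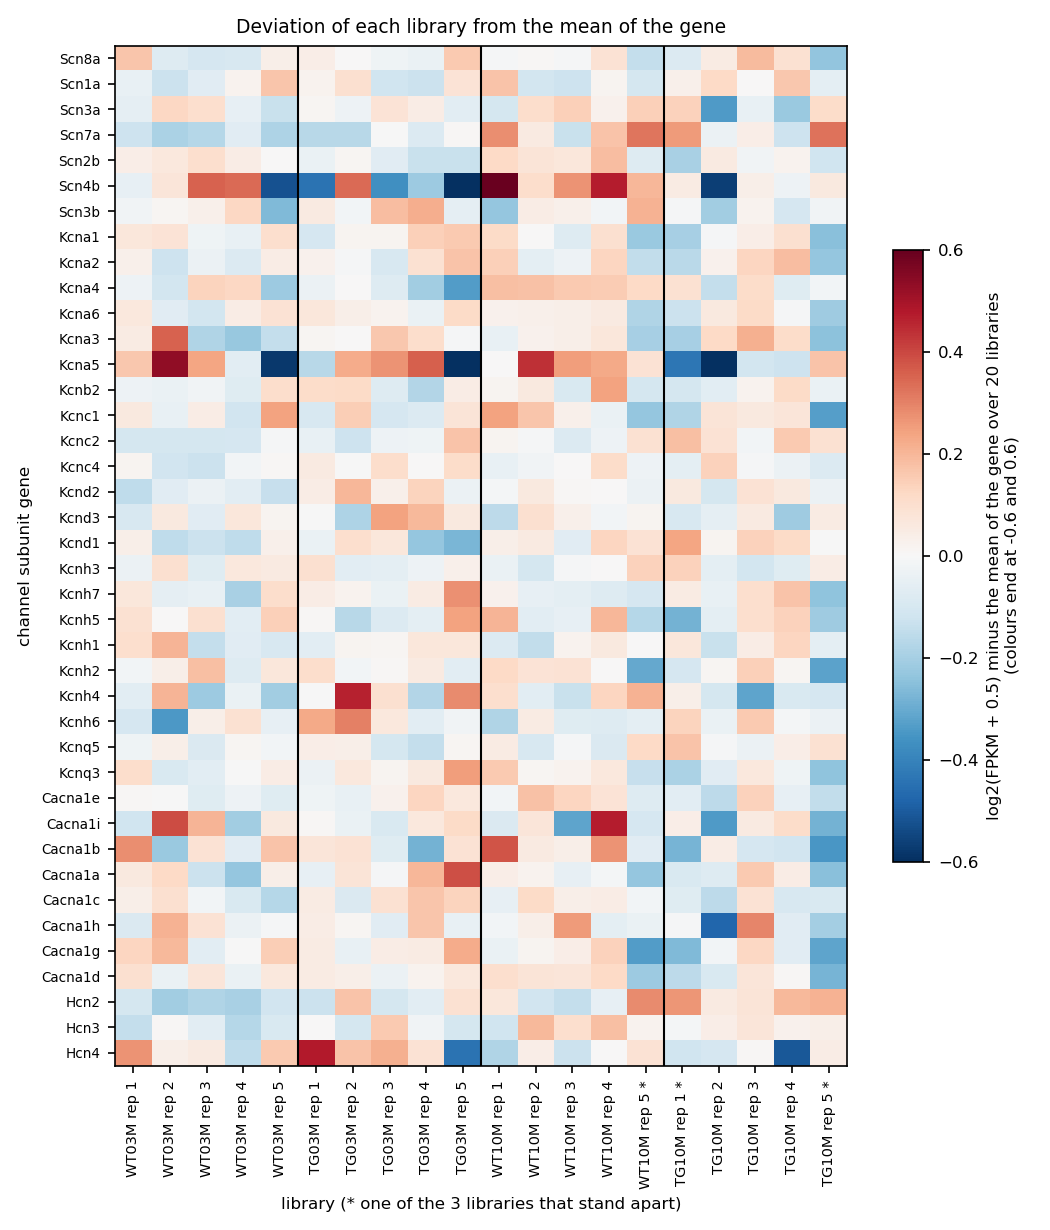
Deviation of 40 of the 47 tested members in each of the 20 libraries from its own mean, in log2(FPKM + 0.5), with members as rows by class and libraries as columns by group; red is above and blue below the mean, and stars mark the 3 libraries that stand apart. Kcnc1 and Kcna1 are blue in the starred columns and Hcn2 is red, and the rows of Scn4b and Kcna5 reach the ends of the colour scale.

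Most members were steady between libraries of a group. The SD of log2(FPKM + 0.5) within groups had a median of 0.121 over the 47 members and 0.144 over all tested genes. It was smallest for Kcnd2 (0.0682), Kcnc4 (0.0692) and Kcnc2 (0.0771). It was among the largest for Kcna5 (0.365), a gene under 3 FPKM, and for Scn4b (0.312).

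Several members are listed with more than 1 sizeable transcript. 17 of 47 had at least 2 transcripts with 10% or more of the gene's FPKM each, and 30 had 1 transcript with 90% or more. Kcnc1, whose transcripts differ at the end of the coding sequence, was divided between 2 transcripts, and the larger held 55.4 ± 2.49% and 55.4 ± 3.08% in WT and TG at 3 months and 55.5 ± 3.11% and 54.8 ± 5.34% at 10 months. Scn8a was divided among 3 transcripts with 34.0%, 32.2% and 19.9% over all libraries, of 15 listed. In the third of these the share was 18.0 ± 0.601% and 21.9 ± 1.15% in WT and TG at 3 months and 17.8 ± 2.86% and 22.1 ± 1.41% at 10 months. The first held 35.0 ± 2.07% and 31.4 ± 2.70% at 3 months and 33.9 ± 1.41% and 35.6 ± 0.805% at 10 months. The second held 33.3 ± 2.19% and 33.1 ± 1.24% at 3 months and 33.8 ± 3.72% and 29.1 ± 3.81% at 10 months. These shares rest on how reads were assigned among overlapping transcripts and were not tested between groups.

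In GENCODE M21 the exons of 14 members share bases with a gene on the opposite strand, among them Kcna6, Kcnd3, Kcnh7 and Kcnq5. Kcnh3 is also among them, but by 1 base only. Whether counting used the strand is not given in the sources used here. Reads of the overlapping genes may thus not have been kept apart, and levels are uncertain to the extent of the overlap. Kcna6 shares 2355 bases, Kcnh7 696 bases and Kcnq5 237 bases.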

How the data were processed

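Total RNA of frozen cerebral cortex with a RIN above 7 gave 20 libraries, 5 in each of 4 groups taken from the sample titles; the sequencer is not stated in the labels. The authors deposited FPKM for single transcripts, per the file headers. The submitters' processing notes list CASAVA, TopHat2, Cuffdiff and DESeq2, with GRCm38 and mm10 as builds. Which step each served, and in which version, is not stated there.

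FPKM of 50660 transcripts were summed to 21949 genes, and coordinates are from GENCODE M21 on GRCm38. Genes with a mean of at least 0.5 FPKM (13722) were tested on log2(FPKM + 0.5) with limma 3.58.1 in R 4.3.3 (lmFit, contrasts, eBayes with trend, two-sided), with 1 mean per group in 1 fit of all 20 libraries and 16 residual degrees of freedom. The comparisons were genotype at each age, age in each genotype, and their interaction. The fit was tested on simulated data. No scaling was added. Depth was estimated from 1815 genes with 1 transcript of over 4000 bases, from 42 to 64 low values per library, of which 85.4 to 96.2% lay within 0.1 of a whole multiple of a step chosen to maximise this share. Only steps within a fixed range were tried, so the depth could fall only within the matching range. Correlations of log2 values between replicates of a group were 0.978 to 0.994, so none of them held the same values.

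Members named in full are those called, the 2 highest of each class, and the 3 with the largest differences in each comparison among members of at least 1 FPKM, besides Prnp, called genes of the accessory lists and up to 2 markers per list. The genes mt-Co1, Hsp90aa1, Kcnc4, Scn3a, Scn3b, Hcn3, Hcn4 and other members given by level or spread were named after their values were seen. Members, lists and the libraries that stand apart were chosen with earlier results of these data known. Alternatives were other pseudocounts, filters and scalings, a fit of only the groups in a comparison, a replicate block, and leaving out libraries. The other deposited FPKM tables were not used here, and the values of some members are not reported here.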

Additional observations from a re-analysis of the deposited data

Results flagged for a closer look

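In 92 sets of 5 libraries (23 genes in 4 groups), 5 held a library far from the other 4 by Dixon's test at the 95% level, where chance gives about 1 in 20. In WT10M replicate 5, which stands apart, the accessory gene Kcnip4 had 30.0 FPKM against 20.5 to 23.0 FPKM in the other 4 WT10M libraries. In WT03M replicate 5, Kcnc2 had 23.5 FPKM against 21.9 to 22.0 FPKM in the other WT03M libraries and Kcnb2 had 7.05 FPKM against 6.17 to 6.41 FPKM. In TG03M replicate 5, Kcnh7 had 23.4 FPKM against 18.7 to 19.9 FPKM in the other TG03M libraries. In TG10M replicate 2, Scn4b had 29.6 FPKM against 43.1 to 45.8 FPKM in the other TG10M libraries. WT03M replicate 5, TG03M replicate 5 and TG10M replicate 2 are also the 3 libraries with the lowest summed striatal markers. No member was called in the test of genotype differences between ages.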

How the results depend on the processing

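The count of called members was 0 in each of the 5 comparisons and 0 under every alternative but 2, both at 10 months. It was 1 of 47 without the 3 libraries that stand apart, and it ran from 0 to 4 when each 10-month library was left out in turn. The 4 of 47 came without WT10M replicate 5, where 1600 of 13722 genes were called. For the other 4 comparisons leaving out single libraries gave 0. The count of all genes called depended more on the processing. Without the 3 libraries it was 326 against 87 for genotype at 10 months, 473 against 41 at 3 months and 73 against 116 for age in TG. With the compared groups alone it was 16, 221 and 52 in the same order, and 1 against 9 for age in WT. It was 22 at 3 months without a filter and 3 against 5 for the interaction with a limit of 1 FPKM. The causes were not tested. Leaving out single libraries gave 28 to 1600 genes at 10 months (the highest without WT10M replicate 5), 11 to 108 at 3 months (the highest without TG03M replicate 1), 1 to 9 for age in WT, 56 to 154 for age in TG and 4 to 6 for the interaction. Counts fell by over 1.5 times without any 1 library of the comparison except TG10M replicate 2 and WT10M replicate 5 at 10 months, and except TG03M replicate 1 and WT03M replicate 2 at 3 months. For age they fell as far without any 1 library except WT03M replicates 3 and 5 and WT10M replicate 2 in WT, and without TG03M replicates 2, 3 and 5 or TG10M replicates 1 and 5 in TG.

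With the replicate number as a block, the count of all genes was 72 at 10 months, 44 at 3 months, 5 for age in WT, 94 for age in TG and 6 for the interaction, and no member was called. The numbers were not taken as a pairing, since correlations of the deviations of same-numbered libraries ran from -0.17 to 0.66 at 10 months and from -0.42 to 0.10 at 3 months, and 4 and 2 of 10 libraries correlated best with their own number.

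Of 2392 differences of the 23 named genes under alternatives, 2241 kept their sign and their side of the threshold, 136 changed sign without being called either way, 5 gained a call, 10 lost that of Kcnip4 at 3 months, which was 0.0501 in adjusted p without a filter, and 0 reversed a call. FPKM hold no counts, so the precision of low members such as Kcnh6 cannot be given from depth.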
